A study of Mus musculus with 24 samples.

Results

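Dietary methionine restriction (MR) was examined in the liver of wild-type (WT) mice, by setting the libraries labelled WT MR against those labelled WT Con. The members were chosen by label alone: all libraries of these 2 groups except WT_CON_7604 and WT_MR_7612, which the study set aside after a principal component analysis, so that 10 of the 24 mice of the series, 5 on each diet, were compared. The series holds liver RNA of male mice of 2 genotypes on 2 diets, read as QuantSeq libraries in which each mRNA gives reads near its 3′ end. The question was which hepatic transcripts respond to MR when the transcription factor NRF2, the product of Nfe2l2, is intact.

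All 10 mice were labelled with the genotype NRF2fl/fl, which has both Nfe2l2 alleles floxed and no Cre. In the study such mice were littermates of the NRF2fl/(alb) knockouts (NRF2 KO), in which Cre under the albumin promoter removes exon 5 in hepatocytes. The Con group ate a diet of elemental amino acids with 0.86% methionine and the MR group one with 0.17% methionine, both without cysteine, from 8 weeks of age for 8 weeks. Their age is labelled as 5 months, and they were killed after a 4 h fast. By the study's methods, calorimetry and then a return to home cages came between the 8 weeks and the harvest. Whether the diets went on through these periods is not stated, so the time on diet at harvest may exceed 8 weeks. WT here thus means a floxed line of male mice in which restriction of methionine was combined with absence of dietary cysteine in both groups.

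Nfe2l2 checks the labels in part, since its 3′ reads are retained in knockout liver. Where these reads lie relative to the deleted stretch was not examined. It was at 106, 125, 117, 324 and 118 CPM (reads scaled to a common library size, with TMM factors) in WT_CON_7602, WT_CON_7603, WT_CON_7605, WT_CON_7607 and WT_CON_7608, and at 107, 101, 102, 94 and 97 CPM in WT_MR_7609, WT_MR_7611, WT_MR_7613, WT_MR_7615 and WT_MR_7616, the order in which values for single mice are given throughout. WT_CON_7607 stood far above the other 9 and resembled a knockout library, which puts its label in doubt. Why its level was higher, and not only retained, was not tested. For several results that leaving it out moved, the value without it is printed as well. Where none is printed, the result was not necessarily unmoved. The log2 fold change of Nfe2l2 was -0.66 (adjusted p = 0.053), and -0.21 without that library. The depth of the 10 libraries ran from 6197291 counts in WT_MR_7615 to 22068338 in WT_CON_7605. Hepatocyte markers were abundant in every library: the 10 listed summed to between 94369 and 126290 CPM in Con and between 84137 and 103050 CPM in MR, and albumin (Alb) alone to 71952 ± 8861 CPM in Con and 58461 ± 4388 CPM in MR (SD, n = 5 each). In a principal component analysis of the 10 mice, the first component, with 34.9% of the variance, put every Con mouse on one side and every MR mouse on the other. The second, with 19%, set WT_CON_7607 and WT_CON_7608 apart from the other Con mice. WT_CON_7604 and WT_MR_7612, set aside after the study's own principal component analysis, were not included, so the split describes only the mice kept.

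As background, a shortage of an amino acid leaves its transfer RNA uncharged, which activates the kinase GCN2, phosphorylates eIF2α and favors translation of the transcription factor ATF4. ATF4 turns on genes for the synthesis, import and tRNA loading of amino acids, and in the liver the hormone FGF21. Methionine is also the source of cysteine and glutathione, whose shortage releases NRF2 from its inhibitor KEAP1, and NRF2 then acts on antioxidant and detoxification genes.

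Of 13336 genes tested, 1843 (13.8%) differed between MR and Con at an adjusted p under 0.05 (edgeR, quasi-likelihood test, Benjamini-Hochberg), 922 higher (6.91%) and 921 lower (6.91%) on MR. Of these, 396 genes (2.97%) changed at least 2-fold, 128 of them higher (0.96%) and 268 lower (2.01%). The 5 MR values lay above all 5 Con values for 709 genes (5.32%) and below them for 534 (4% of those tested), and 581 and 442 of these were among the calls. The counts given below for gene lists stand beside these shares of all genes, and a list near them is no result about its members. The even split of the calls depended on scaling: it was 50.0% higher with TMM and 73.2% with library size only, where the median of all genes was 0.09 rather than -0.01. Without WT_CON_7607, 1489 of 13441 genes were called (11.1%), 764 higher (5.68%) and 725 lower (5.39%), and 1353 of the 1843 genes were called in the same direction in both fits. By the size of the change, the 10 leading rises were those of Slc7a11, Cox6a2, Aldh1l2, Asns, Phgdh, Psat1, Tcf24, Abcc4, Vil1 and Akr1b7, and the 10 leading falls those of Hsd3b5, Orm3, Mup1, Selenbp2, Saa2, Orm2, Wfdc2, Sema5b, Dio1 and Fam198a, among genes of at least 1 CPM whose groups did not overlap.

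**Figure D1:**
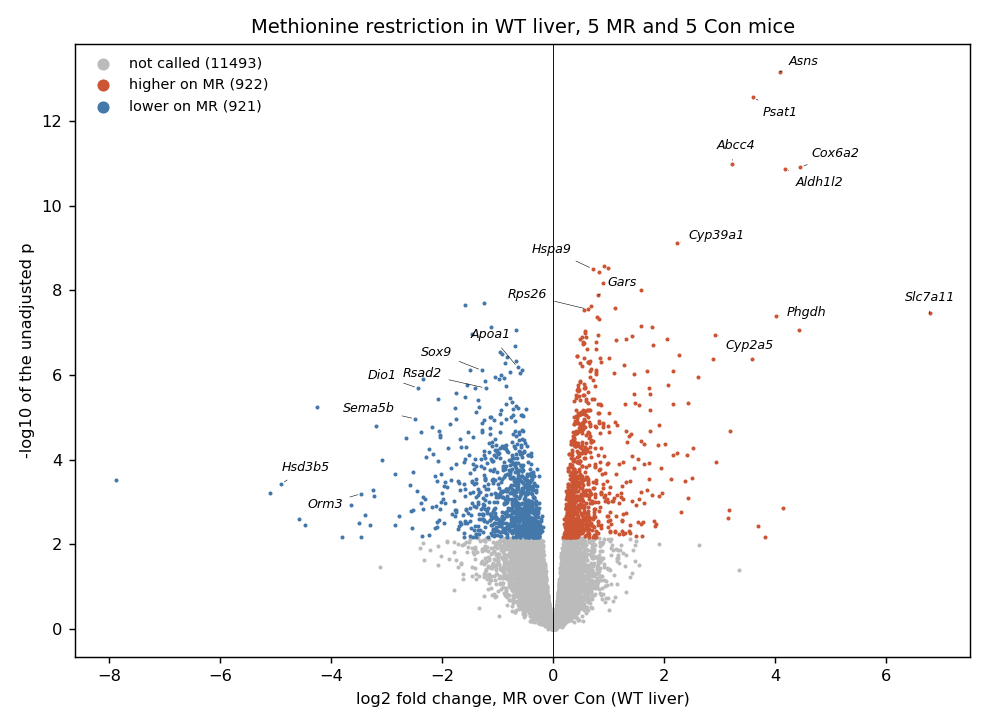
Each point is 1 of the 13336 genes tested, with its log2 fold change of MR over Con in WT liver on the horizontal axis and -log10 of its unadjusted p on the vertical axis; orange points are the 922 genes called higher on MR, blue points the 921 called lower and grey points the rest. Genes of amino acid synthesis (Asns, Psat1, Aldh1l2) and the transporter Abcc4 stand at the top right, and the fitted value of Slc7a11 is no measure of its fold because its counts in Con are at or under 3.

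Enzymes that make serine, asparagine and proline and that carry one-carbon units on folate were higher on MR: 9 of 18 listed enzymes rose and 0 fell, with a median log2 fold change of 0.69. Asns (ENSMUSG00000029752, chr6:7675169-7693254, minus strand of GRCm38), which makes asparagine from aspartate, was at 4.61, 5.40, 4.02, 3.61 and 6.30 CPM in the Con mice and at 80.0, 73.1, 93.6, 83.3 and 81.6 CPM in the MR mice. Every MR mouse had over 10 times the level of any Con mouse (log2 fold change 4.09, standard error 0.24, adjusted p = 9.1e-10). Psat1 (ENSMUSG00000024640, chr19:15904678-15947337, minus strand), the aminotransferase of serine synthesis, went from 2.34, 3.19, 2.50, 2.89 and 3.53 CPM to 30.8, 31.7, 38.7, 43.8 and 33.4 CPM, again with a wide gap between the groups (log2 fold change 3.61, standard error 0.23, adjusted p = 1.8e-09). Phgdh, the first enzyme of that route, was close to undetected in Con, at 0.0731, 0.152, 0, 0.506 and 0.336 CPM, and at 2.99, 2.54, 4.58, 5.58 and 2.76 CPM on MR (log2 fold change 4.01, adjusted p = 2.5e-05), while Psph, the last enzyme, rose by less (log2 fold change 1.14, adjusted p = 5e-05). Aldh1l2, a mitochondrial enzyme that oxidizes formyl-folate to carbon dioxide, went from 0.292, 0.380, 0.104, 0.144 and 0.336 CPM to 4.05, 4.62, 4.06, 6.63 and 4.32 CPM (log2 fold change 4.17, standard error 0.36, adjusted p = 3.7e-08). In Con its libraries held between 2 and 8 reads each, so its fold is imprecise, but the groups did not overlap. The proline enzymes Pycr1 and Aldh18a1 rose by 2.05 and 1.90 on the log2 scale, and mitochondrial Mthfd2 by 1.89 (adjusted p = 4.9e-05, 0.00095 and 0.0019). Mthfd1l passed the test too (log2 fold change 1.52, adjusted p = 0.029), but this call was lost without WT_CON_7602, WT_CON_7603, WT_MR_7609 or WT_MR_7615 (range over the fits without 1 mouse 1.20 to 1.87). With at least 10 counts required in every mouse, which drops the enzymes that are lowest in Con, the median of the list was 0.14.

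Of 17 listed regulators and effectors of the integrated stress response, 6 rose and 1 fell (median 0.28), and 4 rose without WT_CON_7607. Fgf21 (ENSMUSG00000030827, chr7:45613886-45615490, minus strand), a hormone that the liver secretes under amino acid shortage, was at 10.6, 5.85, 1.46, 7.15 and 4.75 CPM in Con and at 68.5, 16.7, 25.2, 20.8 and 24.4 CPM on MR (log2 fold change 2.43, standard error 0.61, adjusted p = 0.013). WT_MR_7609 had the highest level, and the lowest MR mouse was still above the highest Con mouse. Vldlr, a lipoprotein receptor, rose (log2 fold change 1.95, adjusted p = 0.0045) with MR values of 26.6, 11.7, 5.19, 25.2 and 15.2 CPM, of which that of WT_MR_7613 fell inside the Con range. Trib3, a pseudokinase that restrains ATF4 signaling, rose without overlap (log2 fold change 0.85, adjusted p = 0.0035), as did Eif4ebp1, a repressor of cap-dependent translation (log2 fold change 0.83, adjusted p = 2.8e-05), and the call of Trib3 was lost over all 24 mice, at 0.47. Atf5 and Chac1, a transcription factor and a glutathione-degrading enzyme of the same response, were called (log2 fold change 0.61, adjusted p = 0.023, and log2 fold change 1.29, adjusted p = 0.043), but their calls were lost in 3 and 8 of the 10 fits that left out 1 mouse, that without WT_CON_7607 included (ranges 0.47 to 0.69 and 1.08 to 1.45). Atf4 mRNA itself was at 216, 177, 197, 209.7 and 232 CPM in Con and 318, 235, 244, 228 and 220.4 CPM on MR, which did not pass the test (log2 fold change 0.27, adjusted p = 0.064). Gdf15, a stress-induced cytokine, was the 1 called fall of the list: its MR values of 15.1, 18.5, 15.5, 13.9 and 15.5 CPM lay below 4 of the 5 Con values (log2 fold change -1.24, adjusted p = 0.0085).

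ATF4 binds with C/EBP partners to a composite sequence known as the C/EBP-ATF response element. Its letters TGATGNAAN were searched on both strands in the 250 bases before each start site in RefSeq promoters of GRCm38.p6. They occurred in 3.44% of 32851 windows and in 2.55% of the 9936 genes tested that had one. By list, they were in 6 of 16 promoters of the stress response and 3 of 12 of the tRNA synthetases. For the serine and one-carbon enzymes it was 2 of 16, and for the transporters 2 of 18. Some of the genes with a match were not called. Matches before some called genes of the amino acid response are printed below, cut to bases outside annotated exons except for Asns, whose match lies in an annotated exon, with the match in capitals.
Asns (chr6:7693214-7693242, minus strand): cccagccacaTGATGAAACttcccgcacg
Slc7a11 (chr3:50443615-50443724, minus strand): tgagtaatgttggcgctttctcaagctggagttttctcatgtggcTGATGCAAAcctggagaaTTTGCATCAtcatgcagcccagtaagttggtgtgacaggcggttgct
Chac1 (chr2:119351003-119351101, plus strand): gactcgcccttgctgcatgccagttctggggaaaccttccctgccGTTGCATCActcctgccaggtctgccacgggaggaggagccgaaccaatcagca
Fgf21 (chr7:45615577-45615675, minus strand): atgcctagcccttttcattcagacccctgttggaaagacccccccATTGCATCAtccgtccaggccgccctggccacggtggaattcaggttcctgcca
Pycr1 (chr11:120643798-120643896, minus strand): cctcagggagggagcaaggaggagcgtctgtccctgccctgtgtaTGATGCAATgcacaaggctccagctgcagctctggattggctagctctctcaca
Gars (chr6:55037925-55038000, plus strand): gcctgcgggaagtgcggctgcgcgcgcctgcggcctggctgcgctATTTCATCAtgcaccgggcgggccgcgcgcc
The Slc7a11 window holds 2 copies in opposite orientation, and in Chac1, Fgf21 and Gars the match reads on the reverse strand. Such a match describes the letters and is no evidence that a factor binds there. Among the genes called higher on MR, 3.23% had the element and among those called lower 3.05%.

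Among 25 amino acid transporters 8 rose and 1 fell, with a median of 0.09 that ran from 0.05 (without WT_MR_7609 or WT_CON_7603) to 0.15 (without WT_MR_7613) and was 0.14 without WT_CON_7607 or WT_MR_7611. Slc7a11 (ENSMUSG00000027737, chr3:49892526-50443614, minus strand), which imports cystine in exchange for glutamate, had at most 3 reads in any Con library and 16.3, 6.13, 9.60, 8.89 and 2.85 CPM in the MR mice. Set against a floor of 3 counts per Con library, it was at least 46.2-fold higher on MR (adjusted p = 2.3e-05), and the medians of the lists that hold it, transporters and NRF2 targets, were 0.09 and 0.58 with it at this bound as well. Its partner Slc3a2, the heavy chain that carries it to the membrane, went from 50.7, 56.6, 40.4, 60.9 and 63.9 CPM to 122, 85.4, 145, 134 and 95.8 CPM (log2 fold change 1.09, standard error 0.16, adjusted p = 0.00015), with no overlap. The glycine transporter Slc6a9 (log2 fold change 0.67, adjusted p = 0.00091) and the neutral amino acid transporter Slc38a2 (log2 fold change 0.59, adjusted p = 0.0019) rose by smaller steps, again without overlap. Of 20 cytosolic tRNA synthetases 10 rose and 0 fell, with a median of 0.25, and 18 of the 20 had a positive value. Gars, the glycyl-tRNA synthetase, was at 41.5, 39, 35.2, 40.4 and 42.6 CPM in Con and 70.7, 64.8, 81.5, 71.1 and 62.5 CPM on MR (log2 fold change 0.82, standard error 0.10, adjusted p = 1.3e-05). The synthetases of isoleucine (Iars, 0.75), arginine (Rars, 0.56) and tyrosine (Yars, 0.52) followed (adjusted p = 0.00024, 0.0008 and 0.002). Without WT_CON_7607, 7 of the 20 were called, and with library size only the median was 0.35.

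**Figure D2:**
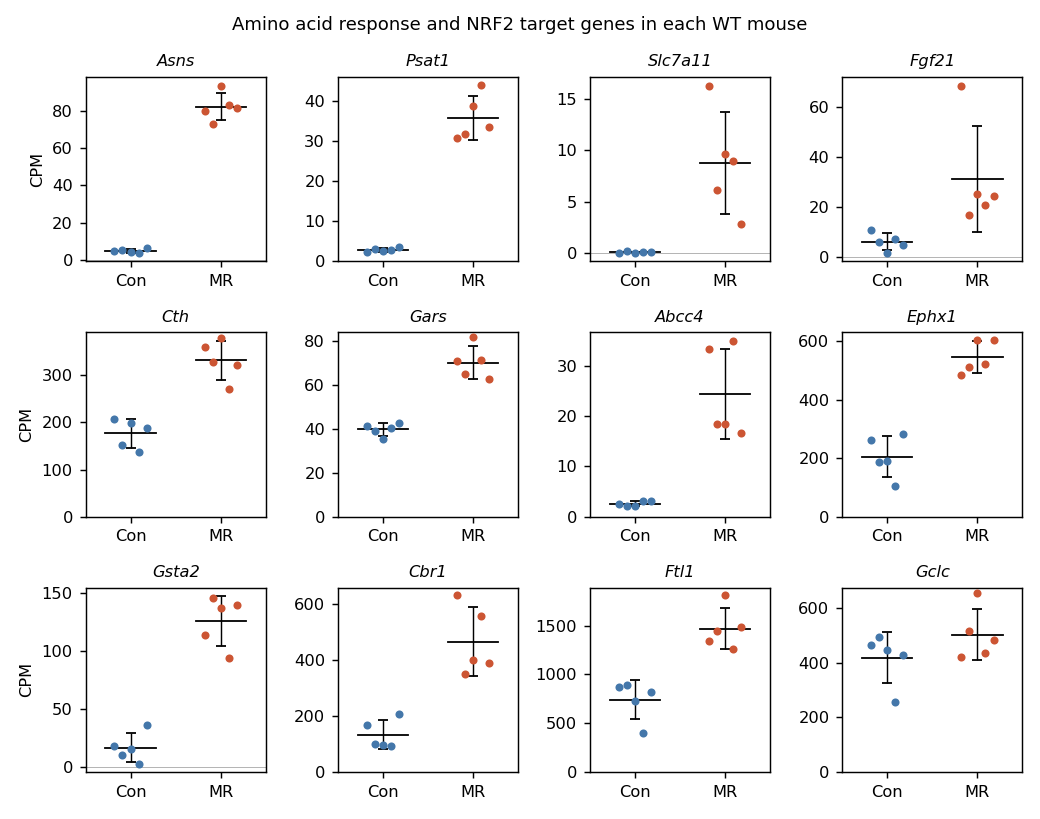
Each panel gives the CPM of 1 gene in the 5 Con (blue) and 5 MR (orange) mice, with the mean as a black line and the SD as a bar, on axes that start at 0. For 11 of the 12 genes every MR mouse lies above every Con mouse, and Gclc is the exception.

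Genes of methionine and cysteine metabolism moved in both directions: of 21 tested, 4 rose and 5 fell (median -0.10). These 9 calls came down to 3 without WT_CON_7603, 4 without WT_CON_7605 and 5 without WT_MR_7609 or WT_MR_7615, and the median ran from -0.13 to 0.0080, its highest without WT_CON_7608. Cth (ENSMUSG00000028179, chr3:157894248-157925077, minus strand), cystathionine gamma-lyase, which releases cysteine in the last step of transsulfuration, was at 208, 153, 199, 137 and 189 CPM in Con and 360.2, 328, 379, 271 and 322 CPM on MR (log2 fold change 0.91, standard error 0.17, adjusted p = 0.001). All MR mice were above all Con mice. Cbs, the enzyme before it, was at 411 ± 35 CPM in Con and 384 ± 37.5 CPM on MR (SD, n = 5 each), which did not pass the test (log2 fold change -0.10, adjusted p = 0.53). Mat2a and Mtrr, which make S-adenosylmethionine and keep methionine synthase active, rose (0.49 and 0.49, both with adjusted p = 0.016), the first not without WT_CON_7603 (range 0.39 to 0.64). Nnmt, which spends methyl groups on nicotinamide, fell from 14.9, 20.1, 42.2, 8.74 and 20.8 CPM to 5.58, 6.86, 6.22, 2.56 and 9.93 CPM (log2 fold change -1.75, adjusted p = 0.021). Its call was lost without WT_CON_7605, the Con mouse with the highest level (range -1.95 to -1.34). Csad, of taurine synthesis, spread from 911, 218, 151, 286 and 570.0 CPM over the Con mice and was uniformly high on MR, at 1132, 1204, 1260, 1262 and 1529 CPM (log2 fold change 1.58, adjusted p = 0.031). Bhmt, which remethylates homocysteine, had lower values (log2 fold change -1.04, adjusted p = 0.04). Neither call was stable: leaving out 1 mouse lost them in 4 and 5 of 10 fits, for Csad that without WT_CON_7607 included (ranges 1.36 to 2.06 and -1.21 to -0.81). Cdo1, the dioxygenase that degrades cysteine, had a log2 fold change of -0.19 (adjusted p = 0.38), and -0.29 without WT_CON_7607.

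Of 39 genes of glutathione synthesis and known NRF2 targets, a list that also holds Nfe2l2 and Keap1, 23 rose and 0 fell. Over all genes tested, 6.91% were called higher. The median log2 fold change of the list was 0.58. For 19 of its genes every MR mouse lay above every Con mouse, as for 5.32% of all genes. Without WT_CON_7607, the median was 0.51 and 21 rose. Abcc4 (ENSMUSG00000032849, chr14:118482692-118706219, minus strand), an efflux pump for conjugated compounds and bile acids, was at 2.56, 2.05, 2.14, 3.03 and 3.11 CPM in the Con mice and at 33.3, 18.4, 18.5, 35 and 16.7 CPM in the MR mice. The lowest MR mouse had over 5 times the level of the highest Con mouse (log2 fold change 3.22, standard error 0.26, adjusted p = 3.7e-08). Ephx1, microsomal epoxide hydrolase, went from 261, 187, 189, 104 and 281 CPM to 486, 512, 605, 522 and 605 CPM (log2 fold change 1.42, standard error 0.19, adjusted p = 4.7e-05). Its lowest Con value was that of WT_CON_7607, and without this library the log2 fold change was 1.25. Carbonyl reductase Cbr1 was at 169, 99.2, 97.5, 92.5 and 208 CPM in Con and 633, 349, 402, 561 and 390.0 CPM on MR (log2 fold change 1.81, standard error 0.24, adjusted p = 5.9e-05). Its relative Cbr3 rose by 2.60 (adjusted p = 0.00017) from values between 0.626 and 2.94 CPM. Among glutathione transferases, Gsta2 was at 18.6, 10.3, 15.3, 3.25 and 36.4 CPM in Con and 114, 146, 137, 94.2 and 139.8 CPM on MR (log2 fold change 2.89, standard error 0.38, adjusted p = 9.6e-05). Gsta1 (log2 fold change 2.52, adjusted p = 0.0022) and Gstm3 (log2 fold change 2.38, adjusted p = 0.0071) rose as well, WT_CON_7608 having a Gstm3 level of 177 CPM against at most 48.8 CPM in the other Con mice. Without WT_CON_7607 the log2 fold changes of Gsta2 and Gsta1 were 2.63 and 2.24. The transferases have close relatives among which the counting could have divided reads, so single members are uncertain. Quinone reductase Nqo1 (log2 fold change 1.74, adjusted p = 0.00058), the microsomal transferase Mgst3 (log2 fold change 1.40, adjusted p = 0.0013) and aldehyde oxidase Aox1 (log2 fold change 1.10, adjusted p = 0.013) were higher too. Without WT_CON_7607, which had the lowest Aox1 and Nqo1 of the Con mice, their values were 1.54, 1.39 and 0.86 and all passed.

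Within glutathione synthesis itself not every gene passed the test. Gclm, the modifier subunit of the first step, was called higher (log2 fold change 0.54, adjusted p = 0.00033). Gss, glutathione synthetase, rose without overlap (log2 fold change 0.55, adjusted p = 5.6e-05), as did Gsr, the reductase that regenerates glutathione (log2 fold change 0.66, adjusted p = 0.00017). Gclc, the catalytic subunit of the first step, was at 465, 493, 447, 256 and 428 CPM in Con and 423, 514, 655, 437 and 483 CPM on MR and did not pass the test (log2 fold change 0.27, adjusted p = 0.37). Its lowest value of all 10 mice was that of WT_CON_7607, and without this library the log2 fold change was 0.14. Txnrd1, thioredoxin reductase, rose a little (log2 fold change 0.38, adjusted p = 0.0077), a call lost over all 24 mice (0.33), and Sod2, mitochondrial superoxide dismutase, had a log2 fold change of 0.20 (adjusted p = 0.14). Of 15 genes of metal handling 5 rose and 1 fell. Both ferritin subunits rose: Ftl1 went from 867, 893, 732, 398 and 820.4 CPM to 1347, 1444, 1820, 1258 and 1483 CPM (log2 fold change 0.99, standard error 0.18, adjusted p = 0.001) and Fth1 by 0.64 (adjusted p = 0.00087). Here too WT_CON_7607 was the lowest of the Con mice, and without it the values were 0.83 and 0.53. The iron exporter ferroportin, Slc40a1 (log2 fold change 0.70, adjusted p = 0.00038), and the zinc importer Slc39a4 (log2 fold change 1.74, adjusted p = 0.0012) were higher in every MR mouse than in any Con mouse.

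NRF2 acts through the antioxidant response element. Its core TGACNNNGC was found on either strand in 10.2% of the 32851 windows and in 13.8% of those of the 9936 genes tested. Among genes called higher it was in 17.5%, among those called lower in 13.7%, and in the NRF2 target list in 10 of 34 promoters. Abcc4, Gclm, the modifier subunit of the first step of glutathione synthesis (log2 fold change 0.54, adjusted p = 0.00033), and Txnrd1 are shown because they carry the element and were called higher.
Abcc4 (chr14:118676932-118676999, minus strand): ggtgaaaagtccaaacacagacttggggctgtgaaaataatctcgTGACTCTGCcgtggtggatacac
Gclm (chr3:122245378-122245476, plus strand): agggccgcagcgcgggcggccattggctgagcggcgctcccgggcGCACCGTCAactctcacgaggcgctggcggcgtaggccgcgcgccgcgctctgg
Txnrd1 (chr10:82859069-82859167, plus strand): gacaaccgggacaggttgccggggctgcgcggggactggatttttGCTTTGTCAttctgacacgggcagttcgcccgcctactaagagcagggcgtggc
The capitals mark the match, which for Gclm and Txnrd1 is on the reverse strand. The Abcc4 window shown belongs to 1 of its start sites, and the window of another start site holds a match as well.

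Drug-metabolizing genes followed: 9 of 31 receptors and targets of xenobiotic signaling rose and 0 fell (median 0.50). The count was 6 without WT_CON_7607 and 5 without WT_CON_7603, WT_MR_7609 or WT_MR_7615. Cyp2a5, a P450 that oxidizes nicotine and coumarin, was at 89.9, 164, 207, 51 and 336 CPM in Con and 1198, 1423, 1777, 947 and 1054 CPM on MR (log2 fold change 2.92, standard error 0.36, adjusted p = 4.5e-05). Its lowest Con value was that of WT_CON_7607, and without this library the log2 fold change was 2.685. The groups were far apart, although near-identical Cyp2a genes make the assignment of reads uncertain. Por, the reductase that supplies P450 enzymes with electrons, rose from 92.6, 84.2, 95.9, 142 and 225 CPM to 455, 246, 246, 338 and 314 CPM (log2 fold change 1.32, standard error 0.24, adjusted p = 0.0012), with WT_CON_7608 the nearest Con mouse. Gstt2, a theta class transferase, rose by 1.37 (adjusted p = 0.0014). Cyp2b13 was called (log2 fold change 4.14, adjusted p = 0.018) on values of 3.98, 0.623, 0, 16.7 and 1.38 CPM in the MR mice, and the call was lost without WT_MR_7615 (range 2.72 to 5.23).

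Of 78 cytosolic ribosomal proteins 69 rose and 0 fell. All 78 had a positive log2 fold change, from 0.08 to 0.86 with a median of 0.51. Without WT_CON_7607 the median was 0.48 and 67 were called higher. The summed level of the list was between 17388 and 20657 CPM in the Con mice and between 24289 and 27441 CPM in the MR mice, with no overlap. Rps26 was at 646, 559, 574, 560.2 and 602 CPM in Con and 923, 937, 903, 934 and 831 CPM on MR (log2 fold change 0.62, standard error 0.08, adjusted p = 2e-05). Rps19 (0.58), Rpsa (0.58) and Rps28 (0.52) moved by similar amounts (adjusted p = 4.2e-05, 4.5e-05 and 4.8e-05). Ribosomal protein genes have many processed pseudogenes, which makes single members uncertain. Cytosolic and mitochondrial chaperones rose in 8 of 16 cases: Hspa9, the mitochondrial HSP70, went from 391, 354, 346, 380.4 and 375 CPM to 660.0, 582, 607, 642 and 547 CPM (log2 fold change 0.72, standard error 0.08, adjusted p = 4.6e-06), and the constitutive HSP70 Hspa8 and the mitochondrial chaperonins Hspd1 and Hspe1 by 0.63, 0.49 and 0.46 (adjusted p = 0.0001, 0.0001 and 0.00068).

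Chaperones of the endoplasmic reticulum did not follow, with 2 of 22 higher, 1 lower and a median of -0.04. Herpud1, which acts in the disposal of misfolded proteins, rose (log2 fold change 0.83, adjusted p = 0.0009), and so did Dnajb9, a cochaperone (log2 fold change 0.83, adjusted p = 0.02), while the disulfide isomerase Pdia6 fell (log2 fold change -0.42, adjusted p = 0.025). The last pair of calls was lost without WT_MR_7609 or WT_MR_7615, and that of Pdia6 also without WT_CON_7602 (ranges 0.71 to 1.01 and -0.51 to -0.35). Xbp1, a regulator of this response, was at 148 ± 27.9 CPM in Con and 149 ± 26.4 CPM on MR (SD, n = 5 each; log2 fold change 0.01, adjusted p = 0.98). Of 80 nuclear subunits of oxidative phosphorylation 2 rose, Cox6a2 and Ndufs7, and the median was 0.03, with 4 calls without WT_CON_7608. Cox6a2 (ENSMUSG00000030785, chr7:128205435-128206387, minus strand), a subunit of cytochrome c oxidase typical of muscle and heart, was at 0.146, 0.380, 0.417, 0.433 and 0.336 CPM in Con and 5.38, 10.1, 9.08, 6.48 and 7.51 CPM on MR (log2 fold change 4.46, standard error 0.37, adjusted p = 3.7e-08). Ndufs7, of complex I, had a log2 fold change of 0.31, and its call was lost in 4 of the 10 fits without 1 mouse, that without WT_CON_7607 included (range 0.25 to 0.36). Of 38 proteasome subunits the regular members Psmd5 (log2 fold change 0.49, adjusted p = 0.0075) and Psmb5 (log2 fold change 0.34, adjusted p = 0.015) rose, and Psmb8, an interferon-induced subunit, fell (log2 fold change -0.67, adjusted p = 0.028), a call lost in 5 fits, not in that without WT_CON_7607 (range -0.83 to -0.54).

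**Figure D3:**
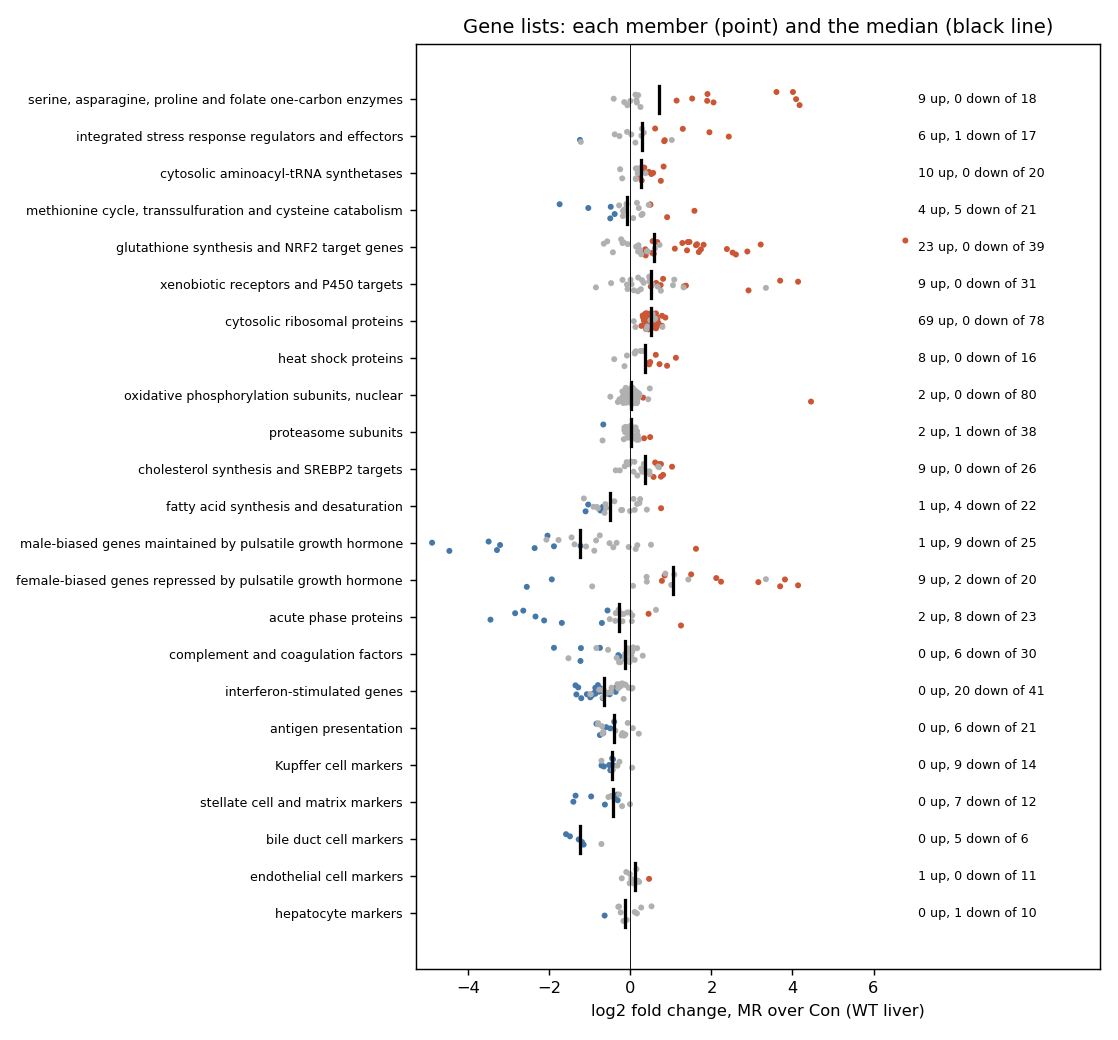
Each row is a gene list and each point the log2 fold change of 1 tested member, orange where called higher, blue where called lower and grey otherwise; the black line is the median. Ribosomal proteins sit wholly to the right of 0, oxidative phosphorylation and proteasome subunits are centred near it, and interferon-stimulated genes and markers of bile duct, stellate and Kupffer cells lie mostly to the left.

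Lipid genes split by pathway. Of 26 genes of cholesterol synthesis and its control 9 rose and 0 fell (median 0.35, and 0.47 without WT_CON_7607), a count that was 4 without WT_CON_7605, WT_MR_7609 or WT_MR_7615 and 5 without WT_MR_7616. They included the sterol carrier Stard4 (log2 fold change 0.34, adjusted p = 0.0023) and the mevalonate kinase Mvk (log2 fold change 0.57, adjusted p = 0.0068). Stard4 was at 114, 127, 123, 118 and 120.0 CPM in Con and 172, 146, 146, 157 and 140.5 CPM on MR, WT_MR_7609 being the highest and the groups not overlapping. Of 22 genes of fatty acid synthesis 1 rose and 4 fell, with a median of -0.50, which was -0.23 without WT_CON_7603. The list had 3 calls without that mouse or without WT_MR_7613. The elongase Elovl5 fell from 1260, 1634, 944, 1356 and 938 CPM to 473, 603, 641, 534 and 598 CPM without overlap (log2 fold change -1.11, standard error 0.23, adjusted p = 0.0035). Agpat2, an acyltransferase of glycerolipid synthesis, fell by 0.68 on the log2 scale (adjusted p = 0.0067), Lpin1, a phosphatidate phosphatase, rose (log2 fold change 0.76, adjusted p = 0.012), and the desaturase Fads2 was called lower (log2 fold change -1.04, adjusted p = 0.03). The call of Fads2 was lost in 6 fits, that without WT_CON_7607 included (range -1.45 to -0.86). Of 28 PPARα targets and genes of fatty acid oxidation 4 passed, a share close to the 13.8% of all genes. All 4 were higher: Hadhb (log2 fold change 0.36, adjusted p = 0.009), Acaa1a (0.28), Acadm (0.34) and the lipase inhibitor Angptl4 (0.63). The calls of the last 3 were lost in 2, 5 and 6 fits, for the enzymes Acaa1a and Acadm also in that without WT_CON_7607 (ranges 0.24 to 0.31, 0.27 to 0.41 and 0.49 to 0.81). Cyp4a14, a sensitive PPARα target, spread widely among the Con mice, at 1567, 730.4, 218, 1929 and 1294 CPM, and did not pass (log2 fold change 1.11, adjusted p = 0.18).

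On the storage side, Plin2, a coat protein of lipid droplets, fell from 989.7, 858, 585, 1214 and 703 CPM to 488, 419, 449, 509 and 665 CPM (log2 fold change -0.78, standard error 0.17, adjusted p = 0.0041), and the lipase Pnpla2 rose without overlap (log2 fold change 0.57, adjusted p = 0.001). Fabp4, a fatty acid binding protein, and Mogat1, an acyltransferase, fell by 0.85 and 2.51 on the log2 scale (adjusted p = 0.002 and 0.0052). Mogat1 had at most 5 reads in any MR library, so its fold is imprecise. Of 16 genes of lipid droplets and triglyceride storage 2 rose and 3 fell. Beside Pnpla2, the other rise was that of another droplet coat protein (log2 fold change 0.64, adjusted p = 0.032). Of 20 apolipoproteins and assembly factors 1 rose and 4 fell, and 3 were called without WT_CON_7603, WT_MR_7609, WT_MR_7613 or WT_MR_7615. Apoa1, the main protein of HDL, was at 9892, 10058, 10146, 12441 and 10687 CPM in Con and 7553, 7109, 6195, 7198 and 6193 CPM on MR (log2 fold change -0.64, standard error 0.10, adjusted p = 0.00013), the groups standing clear of each other. Apom, which carries sphingosine 1-phosphate, rose (log2 fold change 0.74, adjusted p = 0.00039), while the lipase regulators Apoc2 and Apoc3 fell (log2 fold change -1.07, adjusted p = 0.0046, and log2 fold change -0.59, adjusted p = 0.028), the call of Apoc3 being lost in 5 fits, not in that without WT_CON_7607 (range -0.69 to -0.43). Of 21 bile acid genes 6 rose and 1 fell, and without WT_CON_7607 4 rose and 0 fell. The calls also numbered 4 without WT_CON_7602, WT_MR_7609 or WT_MR_7615. Abcb11, the bile salt export pump, went from 346, 219.8, 242, 301 and 337 CPM to 398, 508, 508, 369 and 426 CPM (log2 fold change 0.61, standard error 0.13, adjusted p = 0.0025), and Klb, the co-receptor of FGF21 and FGF15, rose as well (log2 fold change 0.66, adjusted p = 0.0014). Slco1a4, an uptake carrier, was called higher (log2 fold change 1.19, adjusted p = 0.0038), with WT_MR_7613 inside the Con range. Of 20 genes of glucose metabolism 2 were called, a share below the 13.8% of all genes. They were the glucagon receptor Gcgr (log2 fold change 0.30, adjusted p = 0.02) and Foxo1 (log2 fold change 0.31, adjusted p = 0.048). Without WT_CON_7607 0 were called, and their values were 0.22 and 0.26. Over all fits without 1 mouse Gcgr ran from 0.22 to 0.35, with its call also lost without WT_MR_7613, and Foxo1 from 0.25 to 0.36, with its call lost in 6 fits.

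The growth hormone axis and the genes it keeps different between male and female liver come next. In male rodents growth hormone comes in pulses, which sustain male-biased and repress female-biased hepatic genes. Ghr, the receptor, was at 447, 454, 513, 362 and 336 CPM in Con and 191, 278, 283, 221 and 289 CPM on MR (log2 fold change -0.74, standard error 0.17, adjusted p = 0.0046), and Igf1, its main hepatic target, was lower without overlap (log2 fold change -0.36, adjusted p = 0.032). The call of Igf1 was lost in 5 fits, not in that without WT_CON_7607 (range -0.42 to -0.30). The axis as a whole had 3 calls among 17 genes and a median of -0.06, beside 13.8% of all genes called. It had 1 call without WT_CON_7605 or WT_MR_7609. Of 25 male-biased genes 9 fell and 1 rose, with a median of -1.23, beside -0.01 for all genes. Their log2 fold changes ran from -4.89 to 1.62. Single mice weighed on this list: its median was -2.20 without WT_MR_7613, and its 10 calls became 5 without WT_CON_7605, WT_MR_7609, WT_MR_7615 or WT_MR_7616 and 6 without WT_MR_7611. Hsd3b5 (ENSMUSG00000038092, chr3:98618634-98630252, minus strand), a steroid reductase of male liver, was at 63.8, 12, 145, 50.3 and 19.8 CPM in Con and 0.133, 1.04, 8.13, 0 and 0.518 CPM on MR (log2 fold change -4.89, standard error 1.13, adjusted p = 0.0078). The Con mice themselves differed by over 10-fold, and the highest MR mouse, WT_MR_7613, lay just under the lowest Con mouse. Selenbp2, a selenium-binding protein, fell from 14.6, 6.46, 74.6, 23.6 and 18.1 CPM to 2.26, 4.05, 4.67, 0.753 and 2.24 CPM (log2 fold change -3.22, standard error 0.79, adjusted p = 0.012). The complement genes C6 (log2 fold change -1.89, adjusted p = 0.0022) and C8a (log2 fold change -1.23, adjusted p = 0.014), also male-biased, fell without overlap. Mup1, a major urinary protein, was lower in every MR mouse (log2 fold change -3.29, adjusted p = 0.033), a call lost in 5 fits, not in that without WT_CON_7607 (range -4.22 to -2.13), and near-identical Mup genes make its reads uncertain.

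Of 20 female-biased genes 9 rose and 2 fell (median 1.05), with log2 fold changes from -2.56 to 4.14 over the list. Cyp39a1, an oxysterol hydroxylase, was at 10.8, 13.7, 12.6, 13.1 and 19.7 CPM in Con and 98.4, 58.1, 48.4, 78.2 and 49.5 CPM on MR (log2 fold change 2.24, standard error 0.21, adjusted p = 1.7e-06). The flavin monooxygenase Fmo1 (log2 fold change 0.78, adjusted p = 5.3e-05) and the thioesterases Acot3 (log2 fold change 2.12, adjusted p = 0.0067) and Acot4 (log2 fold change 0.84, adjusted p = 0.0047) rose too. Cux2, a female-specific transcriptional regulator, was at 21.8, 1.71, 0.432, 9.34 and 1.64 CPM in the MR mice and at most 1.16 CPM in Con (log2 fold change 3.16, adjusted p = 0.026). WT_MR_7609 and WT_MR_7615 stood far above the other MR mice, and the call was lost without WT_CON_7603, WT_CON_7605 or WT_MR_7609 (range 1.85 to 3.47). The same 2 mice had the highest Acot3, Cyp39a1 and Cyp2b13 and the lowest Hsd3b5 and Mup1, and WT_MR_7613 was the MR mouse nearest to Con for Hsd3b5, Mup1, C6 and C8a. WT_MR_7609 and WT_MR_7615 also lay farthest from Con on the first principal component, and WT_MR_7615 was the shallowest library. The part of depth in this was not tested.

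**Figure D4:**
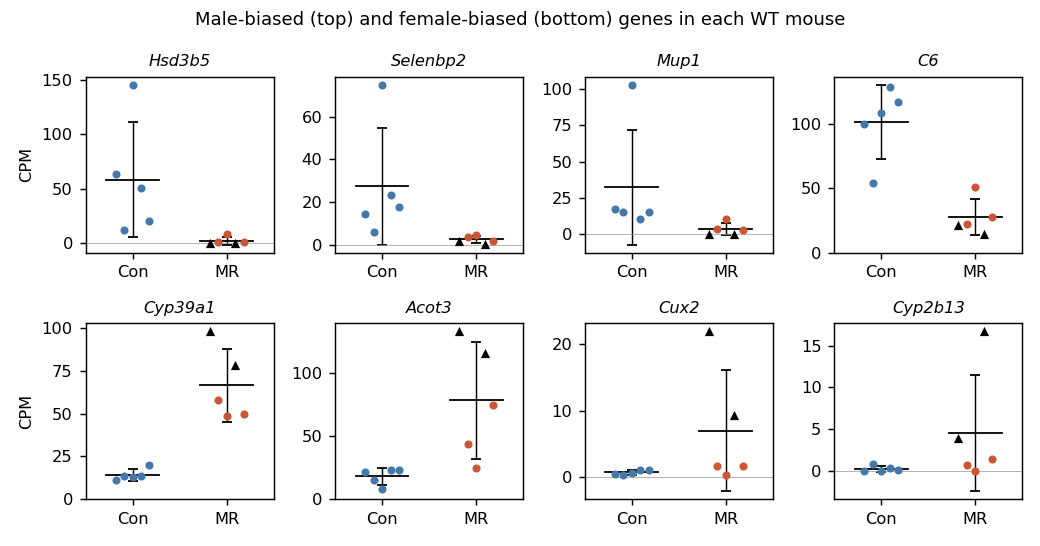
CPM of 4 male-biased genes (top) and 4 female-biased genes (bottom) in each Con (blue) and MR mouse (orange), with the mean as a line and the SD as a bar; black triangles are WT_MR_7609 and WT_MR_7615. The triangles are at the bottom for Hsd3b5 and Mup1 and at the top for Cyp39a1, Acot3, Cux2 and Cyp2b13.

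Most calls among secreted and immune genes were lower on MR. Of 23 acute phase proteins 8 fell and 2 rose (median -0.29), and without WT_CON_7607 8 fell and 0 rose. The list had 6 calls without WT_MR_7615. Saa1 and Saa2, serum amyloid A proteins, were at 21.5, 103, 76.5, 30.3 and 29.2 and 6.87, 54.4, 34.8, 14.2 and 10.9 CPM in Con and at 7.50, 15.4, 11.4, 10.4 and 14.5 and 1.46, 5.35, 1.99, 2.41 and 5.01 CPM on MR (log2 fold changes -2.13 and -2.84, adjusted p = 0.0059 and 0.0056). WT_CON_7603 and WT_CON_7605 had the highest levels of both. The orosomucoids Orm2 (log2 fold change -2.64, adjusted p = 0.0015) and Orm3 (log2 fold change -3.45, adjusted p = 0.011) fell at low levels, and the protease inhibitor Serpina3n fell from 293, 379, 488, 270.0 and 232 CPM to 199.6, 221, 174, 219 and 207 CPM (log2 fold change -0.70, adjusted p = 0.0031). Saa and Orm genes are close copies of each other and their single values are uncertain. Of 30 complement and coagulation factors 6 fell and 0 rose, among them coagulation factor F11 (log2 fold change -1.22, standard error 0.19, adjusted p = 0.0002) and complement C4b (log2 fold change -0.75, adjusted p = 0.0035). Of 19 hepatokines 4 rose and 4 fell, with 5 calls in all without WT_MR_7615. Tsku, a secreted leucine-rich protein, rose from 3.44, 3.27, 5.32, 0.506 and 9.16 CPM to 26.6, 13.2, 18.3, 23.8 and 25.2 CPM (log2 fold change 2.23, standard error 0.44, adjusted p = 0.0026), where WT_CON_7607 was again the lowest and the value without it 1.97. The retinol carrier Rbp4 rose (log2 fold change 0.36, adjusted p = 0.0052) and the chemotactic factor Lect2 fell (log2 fold change -0.59, adjusted p = 0.0027).

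Of 41 interferon-stimulated genes 20 fell and 0 rose, with a median of -0.65, and 39 of the 41 had a negative value. Rsad2 (viperin), an antiviral enzyme, was at 39.3, 40.9, 25.7, 23.8 and 22.6 CPM in Con and 13.1, 14, 16.1, 8.74 and 12.8 CPM on MR (log2 fold change -1.21, standard error 0.19, adjusted p = 0.00025). Ifit3, an antiviral RNA-binding complex member, went from 15.6, 19.8, 18.5, 10.9 and 10.1 CPM to 3.25, 8.83, 5.96, 5.12 and 6.99 CPM (log2 fold change -1.29, standard error 0.24, adjusted p = 0.0011), and Oasl1 and Ly6e fell by 1.33 and 0.95 on the log2 scale (adjusted p = 0.00053 and 0.00066). WT_CON_7607 and WT_CON_7608 were the lowest of the Con mice for Oasl1, Ly6e and Ifit3, and without WT_CON_7607 21 genes of the list were called, with a median of -0.70. Over the fits without 1 mouse the calls ran from 12, without WT_MR_7609, to 25, without WT_MR_7611. The interferon-stimulated response element, searched on both strands as GAAA, any 2 bases and GAAA, was in 2.98% of the 32851 windows and in 3.4% of those of the genes tested. Among genes called lower it was in 5.81%, a share that includes genes of this list, and among those called higher in 2.38%. In this list it was in 15 of 28 promoters. The promoters of Rsad2 and Ifit3 show it in capitals on the reverse strand, 1 copy in the first and 2 in the second.
Rsad2 (chr12:26456518-26456617, minus strand): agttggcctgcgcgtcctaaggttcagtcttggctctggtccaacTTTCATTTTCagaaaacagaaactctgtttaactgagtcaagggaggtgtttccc
Ifit3 (chr19:34583328-34583461, plus strand): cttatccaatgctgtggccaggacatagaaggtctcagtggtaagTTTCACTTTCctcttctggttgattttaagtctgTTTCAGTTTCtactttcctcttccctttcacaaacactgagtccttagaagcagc
Of 21 antigen presentation genes 6 fell and 0 rose (median -0.40), with 2 calls without WT_MR_7609 or WT_MR_7615, 3 without WT_CON_7605 and up to 9 without WT_CON_7602. The falls were led by the class I gene H2-Q10, from 1934, 1941, 1638, 1959 and 1593 CPM to 1201, 1165, 1266, 1152 and 1214 CPM (log2 fold change -0.60, standard error 0.09, adjusted p = 0.00014), and by Tap1, the peptide transporter (log2 fold change -0.84, adjusted p = 0.0008). H2-Q7 fell as well (log2 fold change -0.49, adjusted p = 0.024), not without WT_MR_7609 or WT_MR_7615 (range -0.59 to -0.38), and class I genes share sequence, which leaves their counts uncertain.

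Markers of other liver cells moved beside these genes, and in whole liver fewer cells of a type and less RNA per cell cannot be told apart. Of 14 Kupffer cell markers 9 fell and 0 rose (median -0.45). Without WT_CON_7607 the median was -0.36 and 7 fell. The sum of the markers was between 603 and 821 CPM in Con and between 478 and 546 CPM on MR. The complement subunits C1qa (log2 fold change -0.52, adjusted p = 0.0017) and C1qb (log2 fold change -0.45, adjusted p = 0.0036), the folate receptor Folr2 (log2 fold change -0.71, adjusted p = 0.0038) and the lectin Clec4f (log2 fold change -0.50, adjusted p = 0.0085) were lower in every MR mouse. Of 12 stellate cell and matrix markers 7 fell and 0 rose (median -0.44), with sums of 539.5 to 836 CPM in Con and 454 to 566 CPM on MR. Without WT_MR_7613 4 were called, and without WT_CON_7607 the median was -0.32 and 5 fell. Col3a1, a fibrillar collagen, went from 18.3, 29.9, 17.8, 38.1 and 36.9 CPM to 11.1, 11.9, 12.2, 9.94 and 7.68 CPM (log2 fold change -1.41, standard error 0.22, adjusted p = 0.00025), with WT_CON_7607 and WT_CON_7608 the highest. Col1a1 (log2 fold change -1.35, adjusted p = 0.012), Col1a2 (log2 fold change -0.97, adjusted p = 0.0026) and Lrat, which stores retinol (log2 fold change -0.63, adjusted p = 0.00054), fell with it, the call of Col1a1 being lost over all 24 mice (-1.47). Of 6 bile duct markers 5 fell, with sums of 49.4 to 76.6 CPM in Con and 21.4 to 28.9 CPM on MR, a count that was 2 without WT_CON_7608 and 3 without WT_MR_7609 or WT_MR_7616. Sox9, a transcription factor of duct cells, fell from 34, 31.3, 34.3, 23.4 and 27.3 CPM to 12.3, 14.2, 13, 7.68 and 13.8 CPM (log2 fold change -1.28, standard error 0.19, adjusted p = 0.00014). Spp1 (log2 fold change -1.15, adjusted p = 0.0025), Epcam (log2 fold change -1.59, adjusted p = 0.012) and Krt7 (log2 fold change -1.19, adjusted p = 0.022) fell at lower levels, Epcam not without WT_CON_7608 and Krt7 not without WT_CON_7608, WT_MR_7609 or WT_MR_7616 (ranges -1.82 to -1.20 and -1.47 to -0.92). Of 11 endothelial markers 1 was called, Bmp2, and it was higher (log2 fold change 0.46, adjusted p = 0.0011), and the sums were 349 to 422 CPM in Con and 399 to 428 CPM on MR. Markers of T and NK cells (0 of 5 called) and B cells (0 of 6) were at the low level of 3.89 to 30.1 CPM in sum. Of 3 neutrophil markers Retnlg fell (log2 fold change -0.96, adjusted p = 0.028), of 5 red cell genes Alas2 (log2 fold change -0.91, adjusted p = 0.028) and of 2 adipose markers Fabp4, given above. These calls were lost for Retnlg in 4 fits, that without WT_CON_7607 included, and for Alas2 without WT_CON_7605, WT_MR_7609 or WT_MR_7615 (ranges -1.05 to -0.87 and -1.10 to -0.75), and over all 24 mice Retnlg was at -0.24 and not called. No pancreatic acinar marker had enough counts to be tested.

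Hepatocytes differ along the axis from portal to central vein, and 4 of 14 pericentral markers fell (median -0.26) while 1 of 14 periportal markers rose (median 0.18, and 0.09 without WT_CON_7607). Rgn, regucalcin, was at 971, 773, 828, 1002 and 1052 CPM in Con and 441, 600.1, 572, 561 and 642 CPM on MR (log2 fold change -0.72, standard error 0.13, adjusted p = 0.00056), whereas the calls of Lhpp (log2 fold change -0.60, adjusted p = 0.018), the ammonia channel Rhbg (log2 fold change -0.82, adjusted p = 0.031) and periportal Etnppl (log2 fold change 1.04, adjusted p = 0.027) were lost in 3, 5 and 5 fits, for Lhpp and Etnppl also without WT_CON_7607 (ranges -0.73 to -0.47, -0.98 to -0.65 and 0.83 to 1.19). Of 30 genes of the urea cycle and amino acid breakdown 3 fell and 1 rose, a share close to the 13.8% of all genes called. Kmo, of tryptophan breakdown (log2 fold change -0.57, adjusted p = 0.011), was the only one of the 4 whose call was kept in all 10 fits without 1 mouse. The calls of Agxt (log2 fold change -0.44, adjusted p = 0.018; without WT_CON_7605 or WT_MR_7616), Oat (log2 fold change -0.87, adjusted p = 0.036; 8 fits) and Bcat2 (log2 fold change 0.54, adjusted p = 0.035; 5 fits), aminotransferases of glyoxylate, ornithine and branched amino acids, were not, and the last pair also fell away without WT_CON_7607 (ranges -0.50 to -0.36, -0.98 to -0.75 and 0.43 to 0.65).

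Cell cycle genes were low and fell where called, 3 of 17 (median -0.70, and -0.42 without WT_CON_7607), with 5 calls without WT_CON_7605 and 1 without WT_CON_7608. Cdkn1a, the inhibitor p21, was at 7.97, 11, 7.15, 31.6 and 25.1 CPM in Con and 4.98, 2.91, 3.80, 2.56 and 5.35 CPM on MR (log2 fold change -2.06, standard error 0.43, adjusted p = 0.0035). WT_CON_7607 and WT_CON_7608 were well above the other Con mice, and without WT_CON_7607 the value was -1.70. Top2a (log2 fold change -1.35, adjusted p = 0.016) had the same 2 mice at the top and was not called without WT_CON_7608, and Mcm3 (log2 fold change -0.78, adjusted p = 0.04) was not called in 7 fits, that without WT_CON_7607 included (ranges -1.56 to -1.02 and -0.88 to -0.59). Of 19 clock genes 6 rose and 2 fell, 8 calls that became 5 without WT_CON_7602, WT_CON_7603, WT_MR_7609, WT_MR_7611 or WT_MR_7616. Per3 (log2 fold change 1.02, adjusted p = 0.0012), Tef (log2 fold change 0.63, adjusted p = 0.0067), Ciart (log2 fold change 1.69, adjusted p = 0.0097) and Per1 rose, the last from 1.68, 2.13, 2.87, 5.20 and 7.65 CPM to 14.7, 7.53, 6.66, 13.9 and 16.5 CPM (log2 fold change 1.54, adjusted p = 0.0032). Neither the labels nor the methods used here give the hour at which each mouse was killed, so that its part in these values was not tested. Of 14 immediate early genes 4 fell and 0 rose. Junb was at 48.7, 37.8, 50.5, 46.6 and 38.3 CPM in Con and 28.3, 31.4, 30.3, 28.5 and 18.9 CPM on MR (log2 fold change -0.69, standard error 0.13, adjusted p = 0.0012), and Nr4a1, a nuclear receptor, fell from below 3 CPM (log2 fold change -1.23, adjusted p = 0.0066). Btg2 (log2 fold change -0.75, adjusted p = 0.018) was not called without WT_CON_7607 or WT_MR_7616, nor Fos (log2 fold change -1.38, adjusted p = 0.045) in 8 fits, that without WT_CON_7607 included (ranges -0.93 to -0.59 and -1.54 to -1.19).

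Among the largest changes, 7 genes belonged to none of these lists. Tcf24, a basic helix-loop-helix factor, rose from 0.731, 0.684, 0.470, 2.53 and 0.336 CPM to 15.5, 9.50, 3.63, 16 and 9.32 CPM (log2 fold change 3.59, standard error 0.48, adjusted p = 9.7e-05), WT_CON_7607 being the highest Con mouse, and the value without it was 4.33. Vil1, the actin-bundling protein villin of microvilli, was at 0.950, 0.456, 0.104, 1.23 and 0.756 CPM in Con and 1.79, 8.10, 13.1, 2.26 and 5.27 CPM on MR (log2 fold change 3.18, standard error 0.58, adjusted p = 0.0012). Akr1b7, an aldose reductase relative, was below 1 CPM in Con and at 6.51, 1.87, 1.73, 3.62 and 1.04 CPM on MR (log2 fold change 3.17, adjusted p = 0.02), but was not called without WT_MR_7609 (range 2.58 to 4.39). Dio1, the deiodinase that activates thyroid hormone, fell from 54.8, 73.5, 125, 29.7 and 34.7 CPM to 9.63, 11.7, 13.8, 9.04 and 14.5 CPM (log2 fold change -2.43, standard error 0.36, adjusted p = 0.00025). Wfdc2, a secreted protein with a protease inhibitor fold, fell in every MR mouse (log2 fold change -2.58, adjusted p = 0.008), as did the semaphorin Sema5b (log2 fold change -2.48, adjusted p = 0.00079) and Fam198a (log2 fold change -2.37, adjusted p = 0.0012).

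The same contrast in NRF2 KO liver, 6 MR against 6 Con mice of the same model, called 1677 genes (12.6%), 831 higher (6.23%) and 846 lower (6.34%), and the difference between the genotypes, tested as an interaction, passed for 6 of 13336 genes (0.045%), with 1008 (7.56%) at an unadjusted p under 0.05. Of the genes named here 2 were among the 6. For Abcc4 the log2 fold change was 3.22 in WT and 0.62 (adjusted p = 0.1) in NRF2 KO, and the interaction 2.60 (standard error 0.35, adjusted p = 0.002). Junb fell in WT (-0.69) and rose in NRF2 KO, by 0.55 (adjusted p = 0.0038), with an interaction of -1.24 (standard error 0.18, adjusted p = 0.002). For the other genes named the interaction did not pass, which does not show that the effects were equal. Asns had 4.09 in WT and 3.86 (adjusted p = 5.9e-10) in NRF2 KO, and Psat1 3.61 and 3.29 (adjusted p = 3.4e-09). The estimates were larger in WT, with interactions that did not pass, for the carbonyl reductase Cbr3 (2.60 against 0.32 (adjusted p = 0.7)), the P450 Cyp2a5 (2.92 against 1.29 (adjusted p = 0.01)) and ferroportin, Slc40a1 (0.70 against 0.04 (adjusted p = 0.84)), the interactions being 2.28 (standard error 0.61, adjusted p = 0.3), 1.62 (standard error 0.45, adjusted p = 0.32) and 0.65 (standard error 0.16, adjusted p = 0.21). The NRF2 target list had 23 of 39 genes higher in WT and 15 higher and 2 lower in NRF2 KO, with medians of 0.58 and 0.32. The ribosomal list had 69 and 41 of 78 higher, with medians of 0.51 and 0.29, and the male-biased list 9 and 18 of 25 lower, with medians of -1.23 and -2.33. These differences between lists were not tested.

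**Figure D5:**
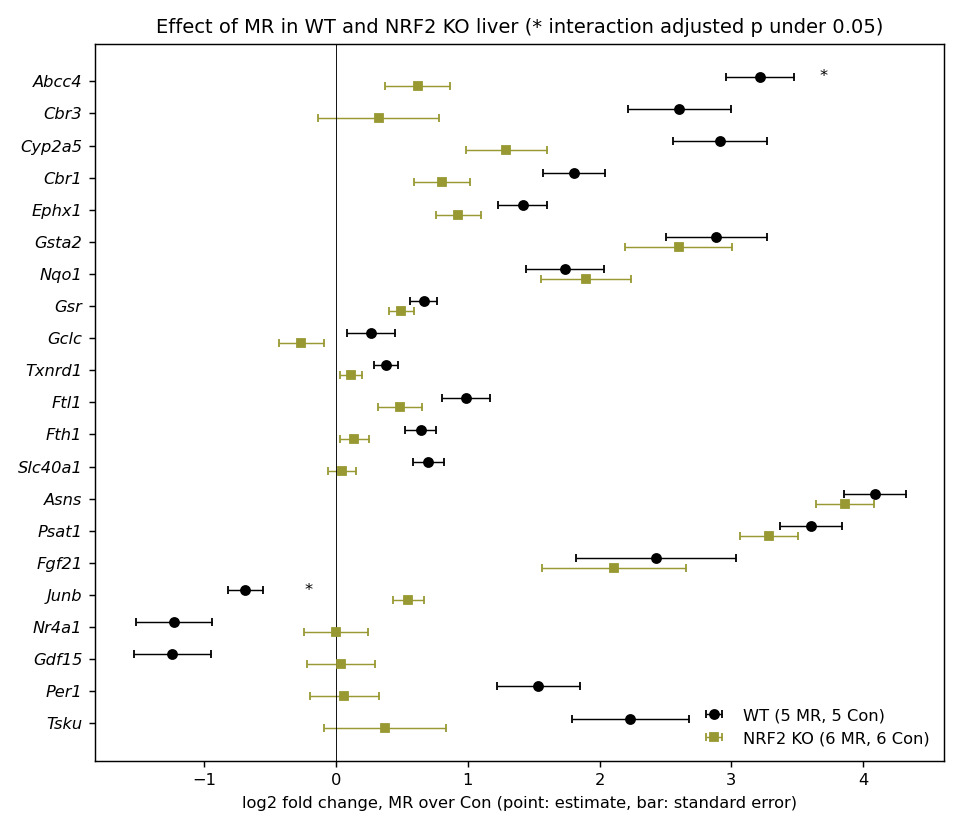
Log2 fold change of MR over Con (points, with the standard error as bars) in WT (black circles, 5 mice per diet) and NRF2 KO liver (olive squares, 6 mice per diet) for 21 of the genes named; an asterisk marks an interaction with an adjusted p under 0.05. Only Abcc4 and Junb carry the asterisk, while Asns, Psat1, Fgf21 and Nqo1 have nearby estimates in both genotypes.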

How the data were processed

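The authors prepared QuantSeq 3′ libraries from whole liver and mapped and counted the reads with the kit maker's pipeline; the aligner and annotation are not given in the sources used here. The count values are raw reads per gene as deposited, for 15160 genes with at least 72 counts over 24 mice. The authors also deposited normalized signal values, raw reads over DESeq2 size factors, used for 1 alternative. Per the labels, R 3.4.3, DESeq2 1.18.1 and build GRCm38 were used. Symbols and positions are from GENCODE M21.

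Counts were analysed with edgeR 4.0.16 in R 4.3.3 (filterByExpr, TMM, robust quasi-likelihood F-test), in 1 model of 22 mice with a mean for each of 4 groups, leaving out WT_CON_7604 and WT_MR_7612. The filter kept 13336 genes and left out 1824. A gene is called, or said to rise or fall, at a Benjamini-Hochberg adjusted p under 0.05. CPM are counts relative to the TMM-scaled library size. Replicates are separate mice, and precision is given by the SD, the values of single mice and the model's standard error. In pairs of libraries of a group the chi-square per degree of freedom over genes was at least 8.32, so no library appears 2 times within a group. Pairs across groups, and the mice left out, were not compared. Strand use in counting is not given in the sources used here, so reads of overlapping genes may be shared. On simulated counts with 200 of 13336 genes changed 2-fold in WT, 146 were called with 8 false calls. Each gene was drawn independently there, and far fewer genes were changed than were called in the data. The error rate in the data is therefore not given by it.

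The groups compared and the gene lists were chosen with earlier results of these data known, and list counts and medians are descriptions. Named genes are the 10 largest rises and falls (at least 1 CPM, no overlap), up to 4 called members of each list with the smallest adjusted p, Nfe2l2, genes the study measured by qPCR and defining list members that did not pass, such as Alb. Pycr1, Aldh18a1, Mthfd2, Mthfd1l, Psph, Chac1, Atf5, Csad, Bhmt, Cdo1, Cbs, Gsta1, Gstm3, Cbr3 and Gclm were added after their values were seen, and some genes the rule names are not reported here. Alternatives were DESeq2 size factors, library size only, other filters, DESeq2 1.42.0, limma 3.58.1 on log2 of the deposited values plus 1, the 10 WT mice only, all 24 mice, and each WT mouse left out. Figures were drawn with matplotlib 3.10.9.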

Additional observations from a re-analysis of the deposited data

Results flagged for a closer look

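In the 340 sets of 5 mice formed by the 170 named genes and the 2 diets, 22 (6.47%) had 1 mouse far from the other 4, and chance alone flags about 1 set in 20. The values are in CPM. WT_CON_7607 stood apart for Nfe2l2 at 324 (others 106 to 125), Gclc at 256 (428 to 493), Fmo1 at 35.8 (52.7 to 56.3) and Tcf24 at 2.53 (0.336 to 0.731). WT_CON_7605 did so for Mup1 at 103 (10.4 to 17.3), Selenbp2 at 74.6 (6.46 to 23.6) and Xbp1 at 196 (127 to 147), and WT_CON_7608 for Gstm3 at 177 (22 to 48.8), H2-Q7 at 68.5 (93.7 to 98.8) and Krt7 at 1.89 (0.912 to 1.16).

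Among the MR mice, WT_MR_7609 had the highest Fgf21, 68.5 (others 16.7 to 25.2), and Atf4, 318 (220.4 to 244). WT_MR_7615 was apart for Aldh1l2 at 6.63 (4.05 to 4.62), Mtrr at 7.23 (9.68 to 10.6), Gsta1 at 8.89 (17.3 to 20.7), Cyp2b13 at 16.7 (0 to 3.98) and Sox9 at 7.68 (12.3 to 14.2). WT_MR_7613 was apart for Hsd3b5 at 8.13 (0 to 1.04) and Tef at 145 (194 to 200.0), WT_MR_7616 for Slc38a2 at 172 (123 to 130.4) and Junb at 18.9 (28.3 to 31.4), and WT_MR_7611 for Krt7 at 0.779 (0.398 to 0.452).

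For 2 named genes the effect of MR differed between WT and NRF2 KO liver by the interaction test of edgeR: Abcc4, by 2.60 on the log2 scale (adjusted p = 0.0020), and Junb, by -1.24 (adjusted p = 0.0020).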

How the results depend on the processing

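No paired analysis was possible because each mouse carries its own animal number and none is shared between the groups. Of 3026 values of named genes over 18 alternatives, 2798 kept direction and side of the threshold, 206 kept direction but lost the call, 14 gained one and 8 reversed, all of Xbp1: -0.0092 with at least 10 counts in every mouse, -0.12 over all 24 mice, and 6 of the 10 fits without 1 mouse, all 10 of which ran from -0.069 to 0.13. The 10 WT mice alone lost 31 of the calls. Scaling by library size only gave 1434 genes higher and 526 lower, with list medians of 0.35 (tRNA synthetases), 0.25 (glucose metabolism), 0.45 (heat shock proteins), 0.10 (proteasome), 0.42 (metal handling), -0.039 (hepatocyte markers) and 0.20 (endothelial markers). At least 10 counts in every mouse, which tests fewer genes, left 173 genes changed at least 2-fold and medians of 0.14 (serine and one-carbon enzymes) and -0.25 (lipid droplet genes). Fits of the 10 WT mice only called 586 genes lower and 250 with a 2-fold change. Of the named genes, DESeq2 called the interaction for 5 and all 24 mice for 1, with medians over 24 mice of 0.26 (heat shock) and -0.58 (immediate early genes). Leaving out 1 mouse gave 1416 (without WT_MR_7616) to 1901 calls (without WT_CON_7602), 328 to 425 changed 2-fold and 2 to 3 named interactions, and medians of -0.61 to -0.23 (fatty acid synthesis, highest without WT_CON_7603), 0.068 to 0.19 (glucose metabolism, lowest without WT_MR_7615), -0.56 to -0.33 (immediate early genes, lowest without WT_MR_7609), -0.00093 to 0.13 (endothelial markers, lowest without WT_CON_7608) and -0.79 to -0.10 (T and NK cell markers, lowest without WT_MR_7616). The causes were not tested. Between 6197291 and 22068338 counts per library, genes under about 1 CPM rest on few reads.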
